A study of Homo sapiens with 4 samples.

Results

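Kallikrein-related peptidases are secreted serine proteases that are encoded side by side on human chromosome 19. The genes described here are KLK5, KLK6, KLK7, KLK8, KLK10 and KLK11, which were taken by name and together make 6 of the 19577 genes with a row in at least 1 of the 4 plates. All 6 had a row in every plate, among 17071 to 17382 rows. They were chosen by earlier results of these data (their levels, their correlation across cells and with EMT markers, and their difference between the experiments), so these values are given as a description and are not tested.

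Cells were MCF10A_H2B_GFP, an untransformed human mammary epithelial cell line with a GFP marker on its nuclei. In every sample 10000 cells were seeded as a circular patch on fibronectin-coated glass and grown for 6 days in medium with EGF, hydrocortisone, cholera toxin, insulin and horse serum. The patch was divided into 3 zones, outer cells were phototagged with the dye JF646 and middle cells with JF646 and JF549, and live cells were sorted by fluorescence into 1 plate of 384 wells. In low-resolution phototagging (2 plates) the zones were rings of 1000 to 1500 μm, and in high-resolution phototagging (2 plates) the outermost and the next bands were 250 μm wide. The model is thus 1 cell line in 2 dimensions, with no untagged patch. The zone from which a well was sorted is not used, and a plate mean is therefore a mean over sorted cells, not over the patch.

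After a filter with the limits that the study's methods state (2000 to 9000 features, under 40% mitochondrial counts), 291 and 271 cells remained in low-resolution replicates 1 and 2, and 291 and 293 in high-resolution replicates 1 and 2, or 1146 in all. In both experiments fewer cells passed here than the study counts as analysed, and the source of this gap was not tested. Without the mitochondrial limit the mean level of KLK5, the most abundant member, was 16.7 in low resolution and 8.87 in high resolution, against 16.4 and 7.62 with it. With mitochondrial counts left out of the total of a cell, it was 24.3 and 11.4. The plates held 11709628 to 14992348 transcripts, with a median of 30118 to 40893 per cell. The same 384 well names occur in all plates. The basal keratin KRT5 had a UMI in 99.6% to 100% of cells of each plate, whereas TP63, another basal marker, had one in at most 4.12%. The leukocyte marker PTPRC was found in at most 1.71% of cells, the hormone receptor gene ESR1 in at most 3.78% and the fibroblast gene DCN in at most 1.37%. The fibroblast gene COL1A1 reached 27.7% and the endothelial gene PECAM1 47.1%, at mean levels of at most 0.0898 and 0.223 counts per 10000.

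In skin, kallikreins act as a proteolytic cascade in which trypsin-like members such as KLK5 cleave other pro-kallikreins and the chymotrypsin-like KLK7 degrades desmosomal proteins during shedding. KLK6 and KLK8 are trypsin-like proteases that are also known from the nervous system, and KLK10 was first described as a gene of normal mammary epithelial cells. Their activity is held back by inhibitors such as SPINK5, and some kallikreins cleave protease-activated receptors.

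In GENCODE 29 (GRCh38, the build hg38 named in the submitters' processing notes) the 6 genes lie on the minus strand of chromosome 19, between chr19:50943303-51028039. In the order of their coordinates they are KLK5 (chr19:50943303-50953093), KLK6 (chr19:50958631-50969673), KLK7 (chr19:50976482-50984099), KLK8 (chr19:50996007-51002711), KLK10 (chr19:51012739-51020175) and KLK11 (chr19:51022216-51028039). The gene KLK9, at chr19:51003111-51009634, separates KLK8 from KLK10. A readthrough gene (AC011473.4) overlaps KLK8 and KLK9 on the same strand, AC011483.3 overlaps KLK6, and antisense genes overlap KLK5 to KLK10. The kallikreins are paralogs, and the treatment of strand and of reads matching several genes is not stated in the sources used here. Counts that these genes could share are therefore uncertain.

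RefSeq promoter windows (GRCh38.p14, 250 bases before to 50 after the start, minus strand) were found for 5 of the 6 members, KLK5, KLK6, KLK7, KLK10 and KLK11. The first listed window is shown for the 4 members that were both matched and measured in most cells of the low-resolution plates, because these genes rose and fell together from cell to cell. The window of KLK5 is at chr19:50952989-50953288, that of KLK7 at chr19:50983868-50984167, that of KLK10 at chr19:51019812-51020111 and that of KLK6 at chr19:50969542-50969841. Capitals mark matches on either strand to AACCGGTT (grainyhead-like), TGANTCA (AP-1), CACCTG (ZEB and SNAI E-box) or TATAA (core of the TATA box), of which TATAA was added after the windows had been read.
KLK5: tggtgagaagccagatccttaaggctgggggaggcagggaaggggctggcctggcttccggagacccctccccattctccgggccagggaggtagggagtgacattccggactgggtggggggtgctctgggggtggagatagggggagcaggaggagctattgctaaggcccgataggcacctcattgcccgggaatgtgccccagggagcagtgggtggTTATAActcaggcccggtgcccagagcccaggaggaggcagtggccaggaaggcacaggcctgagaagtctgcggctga
KLK7: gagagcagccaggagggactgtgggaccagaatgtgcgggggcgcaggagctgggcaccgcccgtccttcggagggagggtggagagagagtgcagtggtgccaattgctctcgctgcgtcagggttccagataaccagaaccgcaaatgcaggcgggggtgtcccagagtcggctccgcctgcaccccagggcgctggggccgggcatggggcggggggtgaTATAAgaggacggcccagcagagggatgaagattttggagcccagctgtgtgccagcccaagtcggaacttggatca
KLK10: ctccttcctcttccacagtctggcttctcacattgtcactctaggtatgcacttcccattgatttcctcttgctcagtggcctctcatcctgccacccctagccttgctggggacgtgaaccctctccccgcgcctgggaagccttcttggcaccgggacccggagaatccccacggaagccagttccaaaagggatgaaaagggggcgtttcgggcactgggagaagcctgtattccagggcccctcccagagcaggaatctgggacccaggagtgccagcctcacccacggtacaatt
KLK6: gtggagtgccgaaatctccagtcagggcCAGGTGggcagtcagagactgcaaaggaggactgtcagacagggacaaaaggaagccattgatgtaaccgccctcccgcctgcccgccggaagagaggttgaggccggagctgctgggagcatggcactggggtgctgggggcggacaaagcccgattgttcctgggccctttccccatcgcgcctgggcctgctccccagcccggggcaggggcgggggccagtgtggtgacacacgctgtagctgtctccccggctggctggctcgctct

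The E-box CACCTG occurred in the KLK6 window, 222 bases before the start and read on the other strand, and was not found in the other 3 windows shown. A further window of KLK7 holds it 10 bases before the start, and both windows of KLK11 hold it. Of all 35116 promoter windows in the table, 20.6% hold it. TATAA was matched 28 bases before the start of KLK5 and 27 bases before that of KLK7, and KLK5 has an overlapping match on the other strand. Of all windows, 20.4% hold TATAA. No match to AACCGGTT (0.134% of all windows), TGANTCA (7.71%) or the longer TATAAA (11.5%) was found in the 4 windows.

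KLK5 and KLK7 made up most of the kallikrein transcripts. A level is given here as the mean over the cells of a plate of UMI counts per 10000 counts of a cell, and because SORT-seq counts 3′ ends, levels can be compared between genes without a length. KLK5, the trypsin-like member of the skin cascade, had a level of 15.9 and 16.8 at low resolution against 7.36 and 7.88 at high resolution. KLK7, the chymotrypsin-like member, had levels of 15.5 and 13.4 in low resolution and of 5.31 and 6.25 in high resolution. Both were higher in each low-resolution plate than in either high-resolution plate, and together they accounted for 80.1% to 84.8% of the summed level of the 6 genes in each plate.

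KLK10 was next, with levels of 2.63 and 2.69 in low resolution and of 1.74 and 1.45 in high resolution. KLK6 had levels of 1.67 and 1.73 in low resolution and of 0.904 and 1.03 in high resolution. KLK8 had levels of 1.31 and 1.40 in low resolution and of 0.506 and 0.569 in high resolution. The plates of the 2 experiments did not overlap for KLK10, KLK6 or KLK8 either, against the same background of 32.1% of genes.

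KLK11, a trypsin-like member at the end of the group, was close to absent. It had a UMI in 2 and 3 cells of the low-resolution plates and in 1 cell of each high-resolution plate, with 1 UMI in each such cell. No fold change is given for it, and it is left out of the comparisons below unless stated.

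The order KLK5, KLK7, KLK10, KLK6, KLK8 held in all 4 plates. KLK5 exceeded KLK7 by only 1.03-fold in low-resolution replicate 1 and by 1.26-fold to 1.39-fold in the other plates, and in low resolution the means of 16.4 ± 0.65 and 14.4 ± 1.5 (SD, n = 2 plates) were close to each other against that spread. KLK6 and KLK8, at 1.70 ± 0.043 and 1.35 ± 0.066 (SD, n = 2) in low resolution, were further apart than the spread between plates. KLK5 lies 5.54 kb from KLK6, yet its level was 7.67 to 9.73 times that of KLK6 in each plate.

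**Figure D1:**
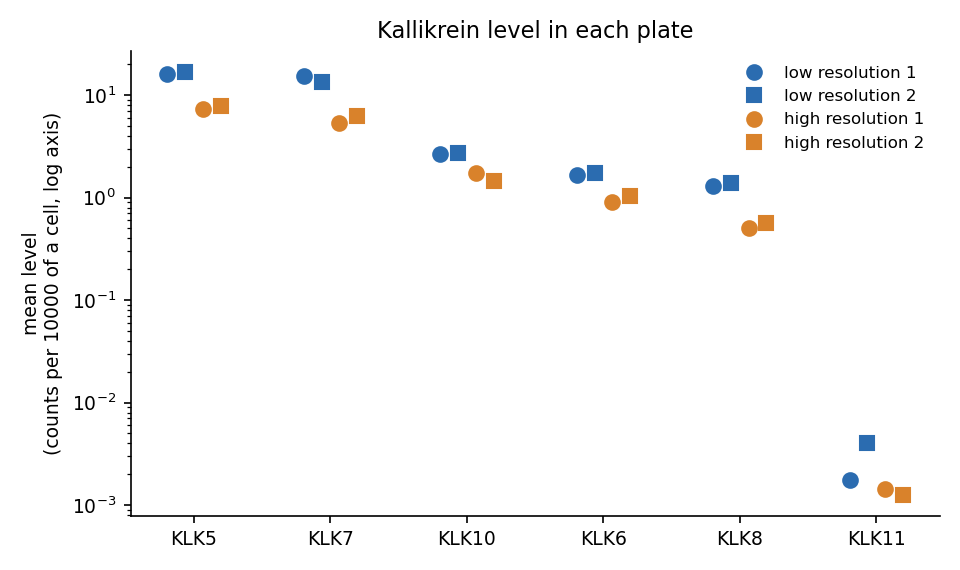
Mean level of each kallikrein (counts per 10000 of a cell, log axis) in the 2 low-resolution plates (blue) and the 2 high-resolution plates (orange), 1 point a plate. For KLK5, KLK7, KLK10, KLK6 and KLK8 both blue points lie above both orange points, and KLK11 rests on 1 to 3 cells with a UMI per plate.

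Levels differed widely between cells of the same plate. For the summed level of the 6 kallikreins, the mean was 37.0 and 36 in low resolution against 15.8 and 17.2 in high resolution, whereas the median cell was at 9.94 and 13 in low resolution and at 1.80 and 1.65 in high resolution. The 90th percentile of cells was 49 and 59.9 times the 10th in low resolution and 92.6 and 102 times the 10th in high resolution. The 10% of cells with the highest sum held 41.1% and 39.9% of it in low resolution and 62.4% and 64.6% in high resolution. With the members taken as 1 gene, their mean level ranked 19 among all genes in each low-resolution plate and 52 and 49 in the high-resolution plates.

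At full depth, KLK7 had a UMI in 99.3% and 96.7% of cells in low resolution and in 82.5% and 91.5% in high resolution. KLK8 had one in 59.8% and 66.1% of cells in low resolution and in 36.1% and 35.2% in high resolution. At 5 or more kallikreins with a UMI, the cells came to 45.4% (exact 95% interval 39.5% to 51.3%) and 50.9% (44.8% to 57%) in low resolution, and to 26.1% (21.2% to 31.6%) and 24.9% (20.1% to 30.3%) in high resolution. With all cells thinned to 10000 UMIs, which left out 2 to 7 shallower cells per plate, these shares were 31.4% and 33.2% in low resolution and 11.6% and 14.1% in high resolution. These intervals cover counting error only.

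The 5 measured kallikreins rose and fell together across cells. For each pair, Spearman's rho of the log-normalized levels was computed across the cells of a plate, which share a patch, a library and a range of depths, so rho is a description. Over the 10 pairs of KLK5, KLK6, KLK7, KLK8 and KLK10, the median rho was 0.764 and 0.748 in low resolution, against 0.633 and 0.662 in high resolution, a mean of 0.702 ± 0.064 (SD, n = 4 plates). No pair was under 0.534 in any plate. With the 5 pairs of KLK11 included, the mean of the medians over 15 pairs was 0.666 ± 0.068. The pairs of KLK11 had mean rho of 0.0377 to 0.0791, from at most 3 cells with a UMI per plate.

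KLK5 and KLK8 were the most alike, with rho of 0.808 and 0.869 in low resolution and of 0.745 and 0.719 in high resolution. KLK7 and KLK10 were the least alike of the 10 pairs, with rho of 0.738 and 0.746 in low resolution and of 0.619 and 0.534 in high resolution. Both high-resolution plates had lower rho than both low-resolution plates for KLK5 and KLK7 (0.565 and 0.605 against 0.814 and 0.822). Pairs of adjacent genes were not more alike than others: the plate median was 0.688 ± 0.070 on average for the 3 adjacent pairs and 0.710 ± 0.052 for the 7 other pairs (SD, n = 4 plates).

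Depth moved these values little. The mean over plates of the median rho of the 10 pairs was 0.639 ± 0.047 in cells thinned to 10000 UMIs, and 0.70 ± 0.067 as a partial rank correlation given the counts of a cell (SD, n = 4). It fell by more when the EMT score of the cell, defined below, was held constant, to 0.467 ± 0.038.

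**Figure D2:**
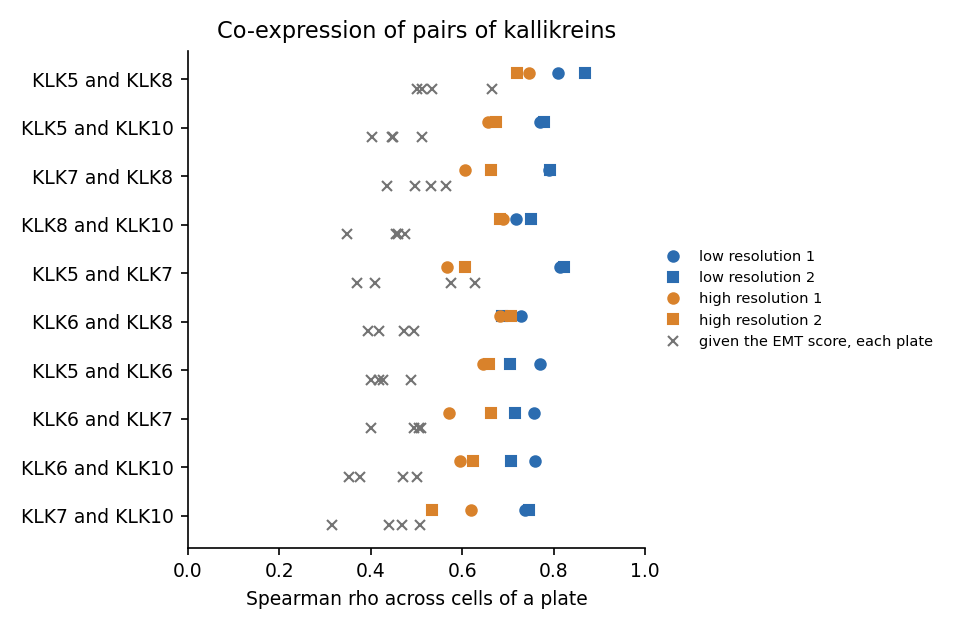
Spearman rho across the cells of a plate for the 10 pairs of measured kallikreins, with 1 coloured point a plate, and the same given the EMT score of the cell (grey crosses, 1 a plate). All coloured points lie at 0.534 or above, and the crosses lie between 0.315 and 0.664.

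Kallikreins were also among the closest genes of each other when all genes detected in 20% or more of each plate's cells were ranked by mean rho. Of 8031 such genes, KLK8 ranked 1 for KLK6 and for KLK7 and 2 for KLK5, while KLK5 ranked 1 for KLK8 and for KLK10. All 4 of the closest genes of KLK6 were kallikreins. The gene ahead of KLK8 for KLK5 was FXYD3, at 0.7857 against 0.7856.

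Outside the kallikreins, the genes most like their summed level included FXYD3, a regulator of the sodium pump (mean rho 0.786 ± 0.056), AZGP1, a secreted zinc-binding glycoprotein (0.777 ± 0.083), and ALDH1A3, a retinaldehyde dehydrogenase (0.726 ± 0.067; SD, n = 4 plates). CLDN7 and CLDN4, claudins of tight junctions, had mean rho of 0.707 and 0.686. HSD11B2, which inactivates cortisol, the adaptor subunit AP1M2, the desmosomal protein PERP and the proton pump subunit ATP6V1B1 followed at 0.691 to 0.681. At the other end were the metallothionein MT2A (−0.705 ± 0.070), EMP3 (−0.692 ± 0.023), the aldose reductase AKR1B1 (−0.673 ± 0.056), the matrix protein TGFBI (−0.653 ± 0.050) and the annexin ANXA5 (−0.650 ± 0.021). CLDN7 and AP1M2 are in the list of epithelial genes used for the EMT score below, and EMP3 is in that of mesenchymal genes. Of 8027 genes ranked, 152 (1.89%) had rho of at least 0.3 with the sum in all 4 plates and 152 (1.89%) had rho of −0.3 or below.

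The kallikreins followed the epithelial marker and opposed the mesenchymal marker. CDH1 encodes E-cadherin, the adhesion protein of epithelial junctions, and FN1 encodes fibronectin, a matrix protein made by mesenchymal cells. The summed kallikrein level had rho with CDH1 of 0.627 and 0.640 in low resolution and of 0.584 and 0.512 in high resolution. With FN1 it had rho of −0.680 and −0.652 in low resolution and of −0.563 and −0.471 in high resolution. CDH1 and FN1 had rho of −0.580 to −0.698 with each other, and the sum kept a rho of 0.355 ± 0.047 with CDH1 given FN1 and of −0.352 ± 0.134 with FN1 given CDH1 (mean, SD, n = 4).

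KLK5 had a mean rho with CDH1 of 0.592, KLK8 of 0.575, KLK10 of 0.548, KLK6 of 0.535 and KLK7 of 0.483. With FN1 the mean was −0.584 for KLK8, −0.580 for KLK5, −0.572 for KLK10, −0.558 for KLK6 and −0.488 for KLK7. All 5 had rho of at least 0.3 with CDH1 and of −0.3 or below with FN1 in all 4 plates, against 1.66% and 1.63% of 8031 genes. In cells thinned to 10000 UMIs the rho of the sum with CDH1, itself a low gene at 0.409 to 0.706 counts per 10000, was 0.464, and KLK6 no longer reached 0.3 with CDH1 in every plate (mean 0.357, lowest 0.266).

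When the cells of a plate were split at its medians of CDH1 and FN1, the summed level was highest where CDH1 was above and FN1 was not, at 66.3 and 58.5 in low resolution and at 34.7 and 36.6 in high resolution. It was lowest in low resolution, at 4.47 and 6.24, and low in high resolution, at 2.13 and 1.74, where FN1 was above and CDH1 was not. The experiments differed for cells above the median in both markers, which had a summed level of 36.4 and 50.02 in low resolution (34 and 31 cells) and of 1.98 and 3.25 in high resolution (23 and 25 cells). Cells above in neither were at 48.2 and 46.3 in low resolution and at 9.11 and 12.1 in high resolution. The medians were set in each plate, so the same cell could be placed differently in another plate.

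The EMT score of a cell is its GSVA score of mesenchymal genes (103 of 115 found) minus that of epithelial genes (64 of 65 found), and no kallikrein is in either list. The sum had rho with the score of −0.815 and −0.792 in low resolution and of −0.685 and −0.656 in high resolution. The mean over plates was −0.731 for KLK5, −0.719 for KLK8, −0.672 for KLK10, −0.644 for KLK6 and −0.601 for KLK7. From the most negative of 8032 genes, these ranked 15, 20, 31, 43 and 58. All 5 were at −0.3 or below in all 4 plates, as were 2.7% of the genes.

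The summed kallikrein level had a rho of −0.258 to −0.0597 with the counts of a cell and of 0.214 to 0.427 with its mitochondrial share, whose part in these relations was not tested.

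**Figure D3:**
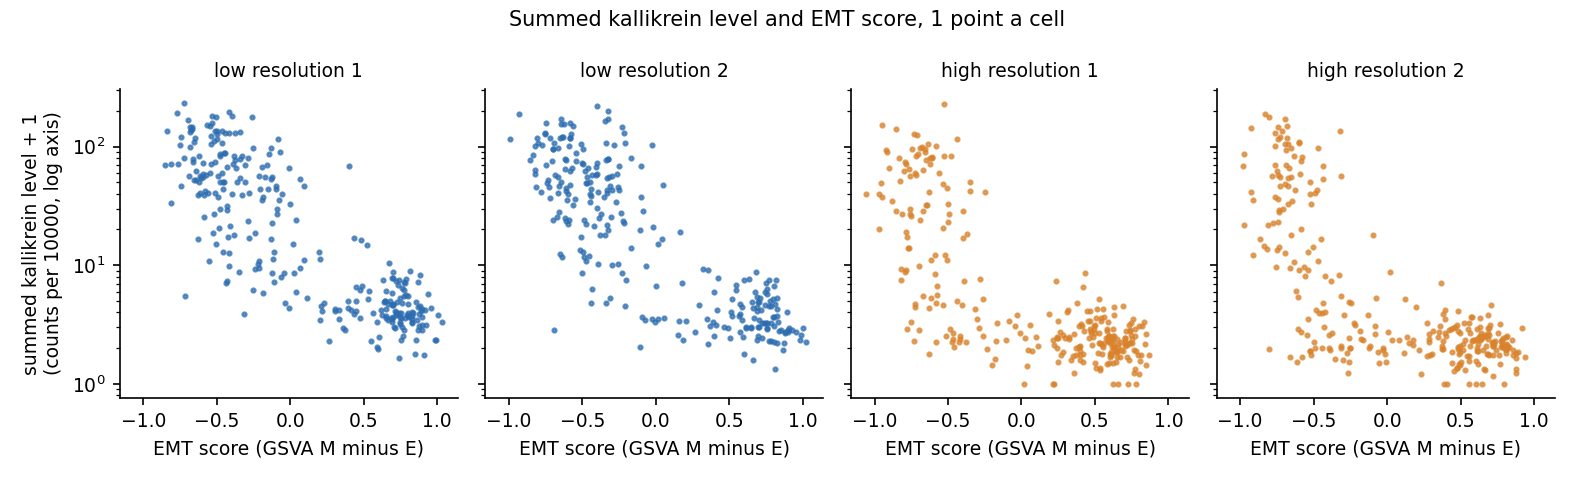
Summed kallikrein level of each cell, plus 1 (counts per 10000, log axis), against its EMT score (GSVA of mesenchymal minus epithelial genes), in 1 panel a plate and 1 point a cell. Levels fall from low to high score, with rho of −0.815 and −0.792 in the low-resolution plates and of −0.685 and −0.656 in the high-resolution plates.

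To compare cells of like score, the score was fitted over all 4 plates and cut into terciles. In the lowest, most epithelial tercile the summed level was 75.5 and 62 in low resolution and 48.1 and 58.6 in high resolution. In the middle tercile it was 18.9 and 18.3 in low resolution and 11.2 and 9.01 in high resolution. In the highest tercile it was 3.50 and 2.76 in low resolution and 1.44 and 1.2 in high resolution. The lowest tercile was thus 21.6 and 22.5 times the highest in low resolution and 33.5 and 48.6 times in high resolution.

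Every measured member took part. KLK8 had the widest range in low-resolution replicate 1, where its level in the lowest tercile was 36.2 times that in the highest, and KLK6 had the widest in high-resolution replicate 2, at 126 times. These ratios rest on few cells of the highest tercile with a UMI, 17 of 77 for KLK8 and 16 of 119 for KLK6. In high-resolution replicate 1 the ratio of KLK6 was 44.2. The smallest ratio of a member in any plate was 18.8, for KLK7 in low-resolution replicate 1. KRT5, in contrast, had levels of 15.7 to 26.6 in the lowest tercile and of 12.4 to 14.4 in the highest.

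At both ends of the score KLK5 and KLK7 made up most of the sum, and KLK10 exceeded KLK6 and KLK8 in every plate. KLK5 made up 42.7% to 47.2% of it in the lowest tercile and 40.05% to 44.95% in the highest, and KLK7 33.6% to 42.8% and 33.6% to 49.1%. KLK8 made up 3.10% to 3.97% in the lowest tercile and 2.14% to 4.19% in the highest.

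Cells of the highest tercile still held kallikrein UMIs. KLK5 had one in 93.5% and 96.6% of these cells in low resolution and in 88.2% and 84% in high resolution, and KLK8 in 22.1% and 27.1% and in 11.8% and 9.24%. In cells thinned to 10000 UMIs the shares for KLK5 were 69.7% and 67.2% in low resolution and 56% and 36.1% in high resolution. The summed level of this tercile was 9.46% and 7.66% of the plate mean in low resolution and 9.07% and 7.01% in high resolution. Transcripts of the cells themselves and transcripts carried over from other wells or from lysed cells cannot be told apart here, and no cell type without these genes was available to set the background.

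**Figure D4:**
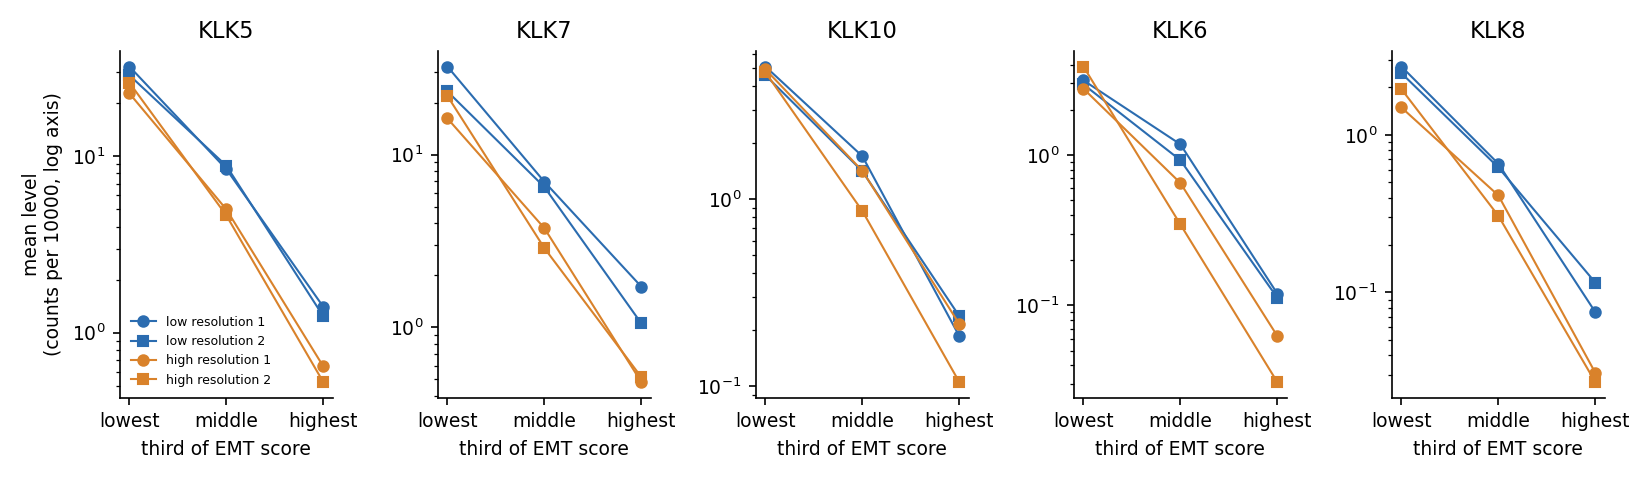
Mean level of each measured kallikrein (counts per 10000, log axis, each panel with its own scale) in the lowest, middle and highest tercile of the EMT score, with 1 line a plate. Every line falls, and in the lowest tercile the plates of the 2 experiments overlap for KLK6 and KLK10 but not for KLK5, KLK7 or KLK8. The share of all genes without overlap there was not computed.

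Co-expression was present within the epithelial end, and rho was close to 0 at the mesenchymal end, where several members were near the detection floor. In the lowest tercile the median rho of the 10 pairs was 0.576 and 0.503 in low resolution and 0.647 and 0.677 in high resolution. In the highest tercile it was 0.0759, 0.0551, 0.0655 and 0.0703, in the same order. There KLK6 had a UMI in 13.4% to 30.5% of cells of a plate and KLK8 in 9.24% to 27.1%. Many values of these genes were thus tied at 0, so a rho near 0 cannot show that co-expression was absent. KLK5 and KLK7 had a UMI in 84% to 96.6% and in 76.4% to 100% of cells there. Their rho in low-resolution replicate 1 was 0.292, against 0.752 in the lowest tercile, and no pair was above 0.292 in any plate. The part of low counts in this was not tested. In the middle tercile the median rho of the 10 pairs was 0.453 to 0.620.

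Correlations with the markers were also computed within terciles. CDH1 and FN1 are themselves in the lists behind the score, so cutting by it restricts their range, and their rho is not comparable with that between kallikreins, which are in neither list. Within the lowest tercile the summed level had rho with CDH1 of 0.00459 and 0.0464 in low resolution and of 0.0864 and 0.240 in high resolution, and with FN1 of −0.121 to −0.0444. In the middle tercile rho with CDH1 was 0.447 and 0.441 in low resolution and 0.273 and 0.170 in high resolution, and rho with FN1 was −0.539 and −0.377 in low resolution and −0.407 and 0.0101 in high resolution. Within the lowest tercile of low-resolution replicate 1, the sum ranged from 15.8 at the 10th to 145 at the 90th percentile of cells.

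High-resolution plates had lower kallikrein levels than low-resolution plates. On the total counts of each plate's cells, the log2 fold change of high against low resolution (edgeR) was −1.49 ± 0.12 for KLK7, −1.47 ± 0.12 for KLK8, −1.22 ± 0.11 for KLK5, −1.05 ± 0.11 for KLK6 and −0.77 ± 0.16 for KLK10 (± SE, n = 2 plates against 2). The SE describes the spread in the fit. No test of the members is given, since they were chosen with this difference known. Of the 12437 genes in the fit, 6.18% were lower at an adjusted p of 0.05 (12.4% in either direction), and KLK11 was not among them. As for the 5 members, in 32.1% of these genes both high-resolution plates were below both low-resolution plates. The file names carry another flow cell code for replicate 1 of low resolution than for the other 3 plates, and without it all 5 were lower, by −1.25 for KLK5 and −0.79 for KLK10.

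KLK10 rested most on single plates, with a log2 fold change of −0.50 without high-resolution replicate 2 and of −1.09 without high-resolution replicate 1. With spike-in totals in place of library sizes, the median of all genes moved from −0.02 to 0.53 (6471 of 6608 called genes higher, against 778 of 1547 with the usual library sizes), and the members were at −0.93 (KLK7), −0.91 (KLK8), −0.65 (KLK5), −0.49 (KLK6) and −0.21 ± 0.18 (KLK10). All 5 had values below 0 under this scaling.

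The experiments also differed in how many cells were at each end of the score. The lowest tercile held 39.2% and 48.3% of cells in low resolution and 24.1% and 22.9% in high resolution, which the sort from zones of other widths can set. In the summed counts of a plate, fewer kallikrein-rich cells and less kallikrein RNA per cell cannot be told apart. With the 3 terciles weighted equally, the level in high resolution was 0.716 of that in low resolution for the sum, against 0.452 over all cells.

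With equal weights, KLK10 and KLK6 were at 0.930 and 0.918, from 0.598 and 0.568 over all cells. KLK5 was at 0.736, KLK7 at 0.636 and KLK8 at 0.635, from 0.465, 0.400 and 0.397. In the lowest tercile alone, KLK10 levels were 5.11 and 4.59 in low resolution and 4.94 and 4.77 in high resolution, and those of KLK6 were 3.14 and 2.96 against 2.77 and 3.88, so that the plates overlapped. KLK8 levels there were 2.71 and 2.46 against 1.49 and 1.95, and the plates did not overlap. The share of all genes without overlap in this tercile was not computed. Over all cells, 32.1% of 12437 genes were lower in both high-resolution plates than in both low-resolution plates. Equal weights follow the lowest tercile, where levels are highest, and the ratio of high to low resolution was smaller in the others. For KLK6 it was 1.09 in the lowest, 0.474 in the middle and 0.403 in the highest tercile, for KLK5 0.80, 0.557 and 0.443, and for KLK10 1.0, 0.734 and 0.759. The difference between members was not tested.

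**Figure D5:**
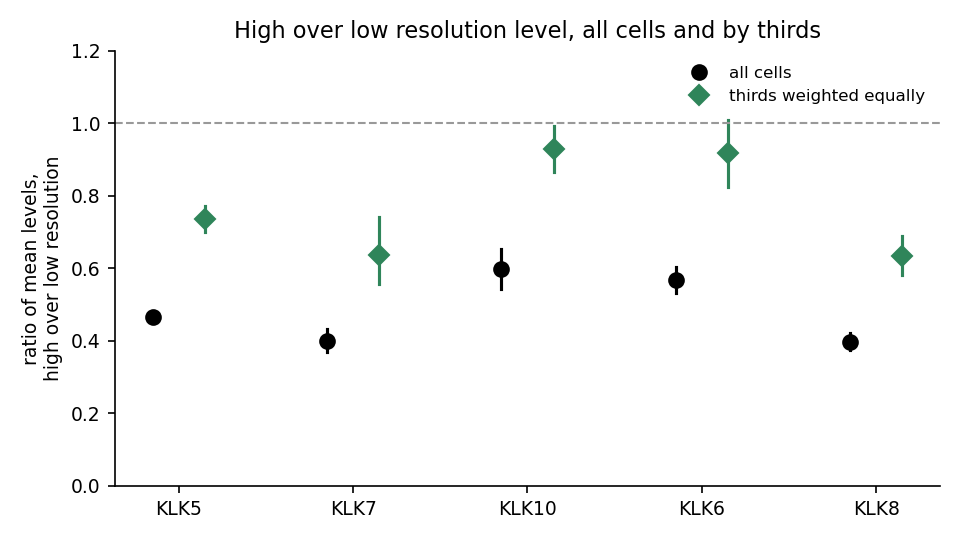
Ratio of mean levels in high over low resolution for each measured kallikrein, over all cells (black circles) and with the terciles of the EMT score weighted equally (green diamonds). Lines span the values with each plate left out in turn, and the dashed line marks equal levels, which the green line of KLK6 crosses.

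The gene lists that follow were chosen with earlier results of these data known, so their counts and p-values are a description. Of the listed inhibitors, the secreted SLPI had the highest level, at a mean of 9.25 in low resolution and of 4.51 in high resolution. SERPINB6 followed at 1.03 and 1.23, while SPINK5 and SPINK6 had a UMI in at most 2.39% and 3.09% of cells of a plate. SLPI had a mean rho of 0.583 with the summed kallikrein level. Of 15 listed inhibitors, 4 were detected in 20% or more of each plate's cells, and 1 of them (SLPI) had a rho of at least 0.3 in all 4 plates (1.89% of all genes ranked did), with a list median of 0.250 against −0.0426 over all genes. Between the experiments, 9 inhibitors were tested, 2 were lower in high resolution and 1 was higher (12.4% of all genes passed in either direction), with a median log2 fold change of 0.30 against −0.02 over all genes tested. On the log2 scale, SLPI fell by 1.09 ± 0.13 (edgeR adjusted p = 0.000483), SERPINA5, the protein C inhibitor, fell by 1.14 ± 0.17 (adjusted p = 0.00177), and SERPINA1 rose by 0.67 ± 0.19 (adjusted p = 0.0393).

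Of the activating and partner proteases, matriptase (ST14) and prostasin (PRSS8), both membrane-bound serine proteases of epithelia, had mean rho of 0.515 and 0.470 with the sum, and both passed 0.3 in all 4 plates, as did 1.89% of all genes ranked. Urokinase (PLAU) had a mean rho of −0.201. In high resolution ST14 was lower by a log2 fold change of −0.95 ± 0.14 (edgeR adjusted p = 0.00125), PRSS8 by −0.83 ± 0.18 (adjusted p = 0.0123), and PLAU was higher by 1.61 ± 0.21 (adjusted p = 0.000664). The list of 5 thus had 3 genes tested, with 2 lower and 1 higher, against 6.18% lower and 12.4% in either direction over all genes, and a median log2 fold change of −0.83 against −0.02.

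Of the protease-activated receptors, F2RL1, which trypsin-like proteases can cleave, had a UMI in 25.8% to 40.5% of cells and a mean rho of 0.0436 with the sum. F2R had a mean rho of −0.271. The log2 fold changes of F2RL1 and F2R were −0.66 ± 0.21 (edgeR adjusted p = 0.0622) and −0.51 ± 0.20 (adjusted p = 0.109), and neither passed.

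The listed substrates included desmosomal cadherins, matrix proteins and secreted factors. Of 12, 6 were detected in 20% or more of each plate's cells. DSC2 and DSG3 had rho of at least 0.3 with the sum in all plates, with means of 0.641 and 0.588. Among all genes ranked, 1.89% passed in each direction. CDH1 was also at 0.3 or above in all plates (mean 0.591), and FN1 was at −0.3 or below (mean −0.592). Both are given as a description only, since the members were chosen with their relation to EMT markers known. DSG2, a desmoglein found in 92.1% to 96.2% of cells, had a mean rho of only 0.249. Between experiments 8 were tested, with 4 lower and 2 higher, against 6.18% lower and 12.4% in either direction over all genes, and a median log2 fold change of −0.48 against −0.02. On the log2 scale, DSG3 fell by 1.04 ± 0.11 (edgeR adjusted p = 0.000236), DSC2 by 1.00 ± 0.12 (adjusted p = 0.000387), CDSN, the skin substrate corneodesmosin, by 0.92 ± 0.24 (adjusted p = 0.0289) and CDH1 by 0.68 ± 0.12 (adjusted p = 0.00321). FN1 rose by 0.77 ± 0.11 (edgeR adjusted p = 0.00127) and PLAUR, the urokinase receptor, by 0.72 ± 0.21 (adjusted p = 0.0418). The fold changes and p-values of CDH1 and FN1 are likewise a description only.

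Genes of squamous differentiation are linked to kallikreins in skin. Of 10 listed names, 3 were detected in 20% or more of each plate's cells, with mean rho of 0.365 (KRT10), 0.329 (SPRR1B) and 0.234 (TGM1), a list median of 0.329 against −0.0426 over all genes, and none reached 0.3 in all 4 plates, as 1.89% of all genes ranked did. Between experiments 3 of 7 tested were lower and none was higher, against 6.18% lower and 12.4% in either direction over all genes, with a median log2 fold change of −0.60 against −0.02. On the log2 scale, KRT4 fell by 1.88 ± 0.32 and KRT10 by 0.91 ± 0.15 (edgeR adjusted p = 0.00312 for both), and involucrin (IVL) by 0.72 ± 0.22 (adjusted p = 0.0487). The basal keratins KRT5, KRT14 and KRT17 had mean rho of −0.0898 to 0.129 with the sum. Between experiments KRT17 was higher in high resolution by 0.54 ± 0.11 on the log2 scale (edgeR adjusted p = 0.0108), as was the endothelial gene PECAM1 by 0.55 ± 0.16 (edgeR adjusted p = 0.0447), and KRT5 and KRT14 did not pass (0.33 ± 0.11 and 0.62 ± 0.32). The part of these markers in the kallikrein values was not tested. Of the epithelial genes, EPCAM, CDH1 and KRT8 had mean rho of 0.608, 0.591 and 0.534 and KRT18 of 0.0619. Between experiments 1 of these 4 genes, CDH1, was lower in high resolution, against 6.18% of all genes. EPCAM (−0.11 ± 0.11), KRT8 (−0.08 ± 0.11) and KRT18 (0.24 ± 0.14) did not pass. The 18 listed genes that passed between the experiments (12 lower, 6 higher) kept their direction without TMM factors and with spike-in totals. Without TMM factors 4 of them no longer passed (SERPINA1, PLAUR, IVL and PECAM1), and with spike-in totals 6 (KLK9, PRSS8, CDSN, CDH1, IVL and KRT10).

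Of the 9 other kallikreins, KLK9 and KLK1 had a UMI in 8.87% to 15.8% and in 3.75% to 6.64% of cells of a plate. KLK4, KLK13, KLK14 and KLK15 had one in at most 1.03% of cells, and no row for KLK2, KLK3 or KLK12 was used here. KLK9, between KLK8 and KLK10 in the genome, had a mean rho of 0.396 with the summed level of the 6 members and of −0.350 with the EMT score. Its log2 fold change of high against low resolution was −1.0 ± 0.28 (edgeR adjusted p = 0.0345). The readthrough gene over KLK8 and KLK9 leaves their counts uncertain.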

How the data were processed

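Single MCF10A cells of 4 plates were measured by SORT-seq, a plate-based method with UMIs. The deposited values are expected counts: for each gene and well, the authors counted distinct UMIs and corrected the number for repeated draws among 4096 UMI sequences, with no scaling. The submitters' processing notes name STAR 2.7.3a, Seurat 4 and hg38. The annotation is not given in the sources used here. Undoing the correction gave whole numbers to within 4.55e-13 for all 7245730 values above 0, and these UMIs were used for thinning.

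A well was kept at 2000 to 9000 features and below 40% of mitochondrial counts, and doublets were not otherwise called. Spike-ins were left out of library sizes, and counts were scaled to 10000 per cell and log-transformed. The EMT score was computed with gseapy 1.3.1 (GSVA, Gaussian kernel, 1 fit per experiment, 1 fit over all plates for terciles). Spearman's rho was computed within plates with scipy 1.17.1. For high against low resolution, expected counts were summed per plate, rounded and tested with edgeR 4.0.16 (TMM, filterByExpr, quasi-likelihood test, Benjamini-Hochberg adjustment over all 12437 genes tested, threshold 0.05), after a run on simulated counts. DESeq2 1.42.0 was an alternative. The plates are biological replicates according to the study's results section, so p-values rest on 2 plates per experiment. In edgeR the spread of a gene is drawn toward that of all genes, so they do not measure its own spread alone. They cannot separate the width of the bands from other differences between the experiments.

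The members and the gene lists were chosen with earlier results of these data known. Named genes are the members, CDH1, FN1, the listed genes and the 10 highest and 5 lowest by rho with the summed level, of which 1 is not reported here. Promoter windows were matched by symbol.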

Additional observations from a re-analysis of the deposited data

How the results depend on the processing

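Of the results that answer a comparison, 75 values under alternatives stayed within the limits set and 7 moved. For a rho the limit was the SD over plates. Leaving out 1 plate cannot shift a mean rho by that much, so such values could only stay, here and among the other values below. The values also include counts of members called lower, which describe genes chosen with that difference known. The median rho over the 15 pairs was 0.426 given the EMT score. The rho of the summed level with CDH1 was 0.464 in thinned cells. The number of genes called between experiments was 1547, against 799 in thinned cells, 6608 with spike-in totals and 982 to 1172 with 1 plate left out, lowest without low-resolution replicate 1 (982) and high-resolution replicate 2 (987). The cause was not tested. With the replicate number as a block, 2023 genes were called (1008 higher, 1015 lower), but plates of the same number did not deviate together (r = −0.0241 over 12437 genes), so they share only a number. The equal-weight ratio of KLK6 ranged from 0.825 without high-resolution replicate 2 to 1.01 without high-resolution replicate 1, where its direction turned. With finer bins it was 0.945, with the z-score difference 0.986 and with both 1.12, where the direction turned too. For the sum, at 0.716, these gave 0.744, 0.757 and 0.832, and for KLK10, at 0.930, they gave 0.961, 0.949 and 0.996. Leaving mitochondrial counts out of the totals raised the levels of all measured members (KLK5 to 24.3 and 11.4) and gave a ratio of low to high resolution of 2.13 for KLK5, against 2.15. Of the other values, 319 stayed within the limits, 41 moved, 2 turned direction (KLK6, above) and 1 became weaker (KLK10 with spike-in totals, −0.21). Spike-in totals, finer bins of the score (also with the z-score difference) and the 10 pairs without KLK11 (median rho 0.702) were chosen after seeing the data. KLK11, with at most 3 UMIs per plate, could not be compared at this depth.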
